A study of Mus musculus with 4 samples.

Results

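The genes that make, package and clear glutamate and GABA were followed in mouse hippocampal nuclei: Slc17a7, Slc17a6 and Slc17a8, Slc32a1, Gad1, Gad2, Slc1a2 and Slc1a3. These 8 were chosen by name from the 56748 gene identifiers of the count tables, and all 8 were found. Hippocampi of 3 male mice were pooled for each of 8 samples, nuclei were isolated 14 h after repeated social defeat (RSD, repeated exposure of resident mice to a larger CD-1 aggressor) or from undisturbed controls, and transcripts of single nuclei were counted as unique molecular identifiers (UMIs) after split-pool barcoding. In the diet experiment C57BL/6 mice ate vehicle chow or chow with PLX5622, an antagonist of the CSF1 receptor that removes microglia (Control-Vehicle and Stress-Vehicle, and on the drug Control-PLX5622 and Stress-PLX5622). In the genotype experiment mice from in-house lines either carried no Cre (Con-IL-1R1+/+, Stress-IL-1R1+/+) or lacked Il1r1, the interleukin-1 receptor, where Cre is or was driven by Vglut2, which is Slc17a6 itself (Con-nIL-1R1-/-, Stress-nIL-1R1-/-). Each pool is 1 sample, and each condition has 1 pool. A p-value therefore sets an effect against the spread left between pools of 3 mice once diet or genotype and RSD are fitted. That spread mixes differences between pools with differences in the RSD effect between diets and genotypes.

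Excitatory terminals load glutamate into synaptic vesicles through the vesicular transporters VGLUT1 (Slc17a7), VGLUT2 (Slc17a6) and VGLUT3 (Slc17a8). GABAergic neurons make GABA from glutamate with the decarboxylases GAD67 (Gad1) and GAD65 (Gad2) and load it through VGAT (Slc32a1). Released glutamate is taken up mainly by astrocytes through GLT-1 (Slc1a2) and GLAST (Slc1a3), and astrocytes return it to neurons as glutamine. In the hippocampus VGLUT1 is the transporter of the principal cells, while VGLUT2 marks afferents from subcortical cells and some other populations.

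The 8 genes lie on 4 chromosomes (GENCODE vM39 annotation, GRCm39). Gad1 spans chr2:70383416-70432372 and Gad2 chr2:22511862-22583886, both on the plus strand. Slc1a2 spans chr2:102488574-102621129 and Slc32a1 chr2:158452605-158464883, also on the plus strand. Slc17a6 spans chr7:51271434-51320867 and Slc17a7 chr7:44813305-44825644 on the plus strand, while Slc17a8 spans chr10:89409882-89457326 and Slc1a3 chr15:8663604-8741595 on the minus strand. A long noncoding gene, Gad1os, lies on the opposite strand of 21.0% of Gad1 and held 772 UMIs, and Gm14204 overlaps Slc32a1 by 0.302 kb and held 1396. Both counts cover only the nuclei of the classes named below, not all nuclei. The sources used here do not state whether counting used strand, so reads in those stretches cannot be assigned with certainty.

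The start regions of both GAD genes and both astrocytic transporters are shown because each pair shares a substrate and yet differed in distribution over the classes below. Each is the RefSeq window from 250 bases before to 50 after the start (GRCm38.p6): Gad1 chr2:70561879-70562178 (plus strand), Gad2 chr2:22622077-22622376 (plus strand), Slc1a2 chr2:102706188-102706487 (plus strand) and Slc1a3 chr15:8710758-8711057 (minus strand). Capitals mark matches on either strand to TATAAA (the TATA box), to TAATTA (the core of many homeodomain sites) or to CANNTG (the E-box).
Gad1: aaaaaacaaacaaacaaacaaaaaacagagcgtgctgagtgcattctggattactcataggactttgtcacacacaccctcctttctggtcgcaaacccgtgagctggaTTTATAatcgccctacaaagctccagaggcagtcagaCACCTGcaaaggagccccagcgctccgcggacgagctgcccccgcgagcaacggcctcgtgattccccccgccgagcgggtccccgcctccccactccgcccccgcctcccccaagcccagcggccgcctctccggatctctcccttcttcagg
Gad2: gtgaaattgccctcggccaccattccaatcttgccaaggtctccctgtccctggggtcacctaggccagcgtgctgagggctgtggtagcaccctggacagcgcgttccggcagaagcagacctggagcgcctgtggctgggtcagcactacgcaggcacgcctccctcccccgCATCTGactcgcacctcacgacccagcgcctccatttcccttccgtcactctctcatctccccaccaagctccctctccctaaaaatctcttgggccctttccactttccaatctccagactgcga
Slc1a2: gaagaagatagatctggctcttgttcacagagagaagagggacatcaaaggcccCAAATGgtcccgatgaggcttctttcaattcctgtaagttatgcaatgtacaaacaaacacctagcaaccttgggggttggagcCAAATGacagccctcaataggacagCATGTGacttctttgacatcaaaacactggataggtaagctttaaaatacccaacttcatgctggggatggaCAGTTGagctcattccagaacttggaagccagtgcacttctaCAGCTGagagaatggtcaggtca
Slc1a3: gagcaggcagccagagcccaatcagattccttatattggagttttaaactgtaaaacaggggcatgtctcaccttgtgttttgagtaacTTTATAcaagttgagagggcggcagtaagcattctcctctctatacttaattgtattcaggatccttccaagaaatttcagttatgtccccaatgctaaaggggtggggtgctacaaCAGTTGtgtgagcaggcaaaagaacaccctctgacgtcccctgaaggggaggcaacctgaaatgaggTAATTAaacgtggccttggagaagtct
Gad1 and Slc1a3 held 1 TATAAA match each, which 13.6% of 32851 such windows hold, and Gad2 and Slc1a2 held none. TAATTA was found in Slc1a3 and in no other of these 4 windows, against 5.29% of all windows. CANNTG occurred in the windows of all 8 genes, and in 72.3% of all windows. A match is a run of letters, not a bound site.

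After nuclei over 20% mitochondrial UMIs were left out, 56834 remained, from 5858 to 8474 a pool, and no combination of wells occurred in more than 1 pool. Median UMIs per nucleus were 598 and 628 in the pools on PLX5622, 1325.5 in Stress-Vehicle and 2563 to 5012 in the other 5 pools, so both PLX5622 pools were the shallowest. Nuclei were clustered without the 8 genes and clusters were named from markers that exclude them. This gave 15 classes with 31851 nuclei and left 24983 unnamed. Medium spiny-like nuclei came almost wholly from 1 pool (243 of 266, Stress-IL-1R1+/+), and the DG-like class joins a deep cluster (median 2768 UMIs) with a shallow one (median 686) that holds most DG-like nuclei of both PLX5622 pools and of Stress-Vehicle. Il1r1 in DG-like nuclei was 62.2 and 28.8 CPM (UMIs of a gene relative to all UMIs of the class in that pool, on the usual CPM scale) in the control and stressed IL-1R1+/+ pools and 11.4 and 8.79 in the nIL-1R1-/- pools, counted over the whole gene. Microglia-like nuclei numbered 13 and 11 in the PLX5622 pools and 160 to 203 in the other 6.

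Levels are given as CPM, with the mean and SD over the 8 pools. Over all nuclei Slc1a2 held 60866 UMIs, Slc17a7 15325, Gad1 13504, Slc1a3 11274 and Gad2 11112. Slc17a6 (1851 UMIs), Slc17a8 (421) and Slc32a1 (372) were sparse. No test was made between classes, because the classes come from clusters of the same nuclei.

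**Figure D1:**
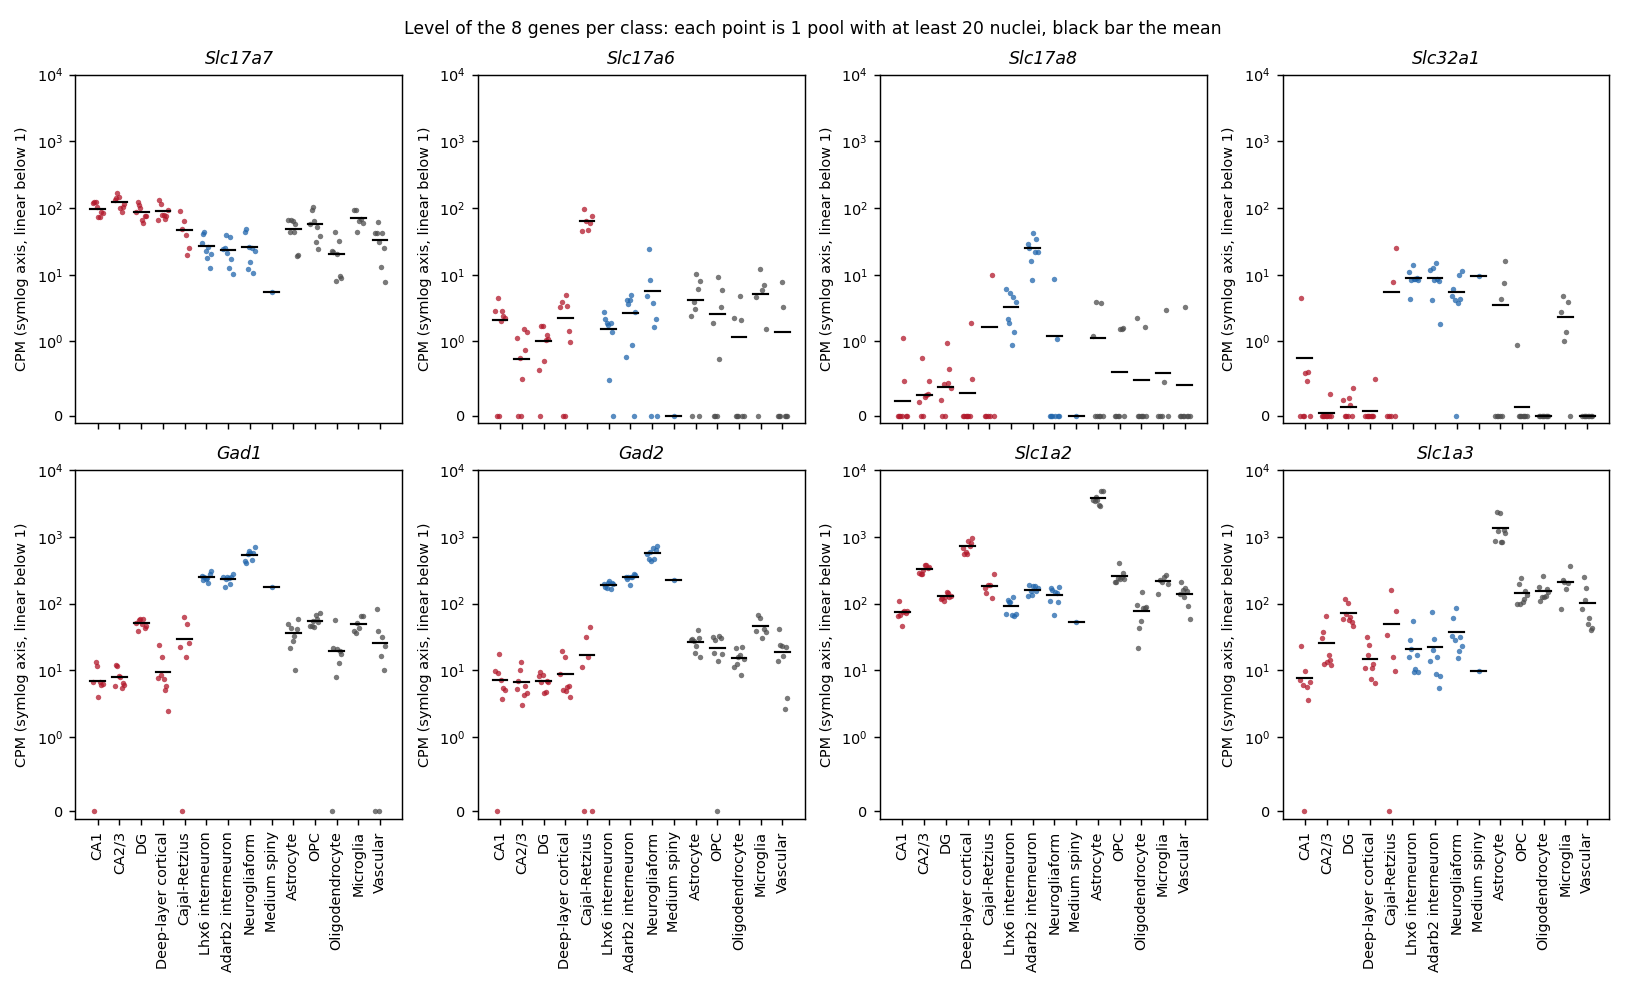
CPM (vertical symlog axis, linear below 1) of each of the 8 genes in 14 classes (horizontal axis); each point is 1 pool with at least 20 nuclei and each black bar the mean of those points, with excitatory classes in red, inhibitory classes in blue and glial or vascular classes in grey. Gad1 and Gad2 are highest in neurogliaform-like nuclei, Slc1a2 and Slc1a3 in astrocyte-like nuclei, and Slc17a8 stands out in Adarb2 interneuron-like nuclei at 24.9 CPM.

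Slc17a7 was highest in the principal cells, as CPM of 124 ± 27.4 (SD, n = 8) in CA2/3-like, 98.2 ± 22.1 in CA1-like, 88.9 ± 23.7 in deep-layer cortical-like and 87.5 ± 22.01 in DG-like nuclei. The ranges over pools of neighbours in this order overlapped. The lowest, median and highest pools were 88.5, 122 and 170 in CA2/3-like nuclei, and 60.3, 81.5 and 124 in DG-like nuclei. Glial classes had lower means but were far from 0, at 70.5 ± 19.9 in microglia-like (n = 6, the pools with at least 20 such nuclei), 57.4 ± 27.9 in OPC-like (oligodendrocyte precursor), 47.6 ± 19.6 in astrocyte-like and 20.8 ± 12.3 in oligodendrocyte-like nuclei, which should lack this transporter. The interneuron classes lay at 23.2 to 26.8.

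With every nucleus thinned to 500 UMIs, 5.62% of CA2/3-like, 4.19% of CA1-like and 3.96% of DG-like nuclei held a Slc17a7 UMI, against 1.88% of microglia-like and 0.442% of oligodendrocyte-like nuclei. As counted, the shares were 42.2%, 29.5% and 16.4% at median depths of 4057, 3325 and 1663 UMIs, against 20.5% of microglia-like (median 2183) and 2.36% of oligodendrocyte-like nuclei (median 1013). The as-counted DG-like share was thus below the microglia-like one, the reverse of the CPM and of the thinned shares.

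Slc17a7 also differed between the experiments. In CA1-like nuclei it was 121 and 123 CPM in the control and stressed vehicle pools and 123 and 105 in those on PLX5622. It was 72.6 and 86.02 in the control and stressed IL-1R1+/+ pools and 72.5 and 83.8 in the nIL-1R1-/- pools. All 4 pools of the diet experiment therefore lay above all 4 of the genotype experiment, and the same held in CA2/3-like, DG-like and OPC-like nuclei. Slc1a2 went the other way in CA2/3-like nuclei (274 to 313 CPM in the diet experiment, 342 to 382 in the genotype experiment), and likewise in DG-like and deep-layer cortical-like nuclei. Of the 56 pairs of a member and a class with at least 50 UMIs, 10 did not overlap between the experiments, where 8.39% of all gene and class pairs of that depth did not. The share was 9.43% of genes in CA1-like, 11.5% in CA2/3-like, 12.1% in DG-like and 7.43% in deep-layer cortical-like nuclei. The source of the mice, the line and the experiment coincide and cannot be told apart. The comparison was chosen with these values in view and was given no test. Depth also differed: median UMIs per CA1-like nucleus were 1322 to 3191 in the diet pools and 3298 to 4786 in the genotype pools. In CA2/3-like nuclei the medians overlapped, at 1295 to 4477.5 and 3960 to 7885.5, and in DG-like nuclei at 599 to 2054 and 1943.5 to 3441.5. The part of depth was not tested.

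Clusters without a class name held 85.3% of the Slc17a6 UMIs, against 43.1% of all UMIs, 44.0% of nuclei and 45.2% of the Slc17a7 UMIs. Slc17a6 was largely absent from the named classes. The exception was the Cajal-Retzius-like class, early-born Reln neurons, with 69.3 ± 24.3 CPM (n = 8). Its pools ran from 44.9 through a median of 60.9 to 113, on 33 UMIs in all, and 2 pools had fewer than 20 such nuclei. In CA1-like, CA2/3-like and DG-like nuclei the level was 2.10, 0.769 and 1.02 CPM, no higher than the 5.18 of microglia-like nuclei (n = 6). The Slc17a6 to Slc17a7 UMI ratio was 1.50 (95% exact interval 0.849 to 2.70) in Cajal-Retzius-like nuclei and 0.00958 (0.00625 to 0.0141) in CA2/3-like nuclei.

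Slc17a6 levels of the unnamed clusters are from the UMIs of all pools summed, so they are not ranked against means over pools. Summed in that way, Cajal-Retzius-like nuclei held 58.3 CPM on 33 UMIs (counting interval 40.1 to 81.9). Among the unnamed clusters, a cluster of 496 nuclei led by Synpo2, Tcf7l2 and Prkcd held 63.9 CPM, higher but within that interval. A second, of 1905 nuclei led by 6330411D24Rik, Zfhx3 and Tcf7l2, held 49.9 CPM and 536 of the 1851 Slc17a6 UMIs. Tcf7l2 and Prkcd are on the thalamic or midbrain marker list used here, but neither cluster scored high enough on it to be named. Of the second cluster's nuclei 1524 came from Con-IL-1R1+/+, and in the whole pool Slc17a6 was 20.9 CPM there against 3.96 to 8.63 in the other 7 pools. Clusters led by Vwc2l (1706 nuclei) and by Fn1 (3322 nuclei) held 32.1 and 17.5 CPM and were spread over all pools.

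**Figure D2:**
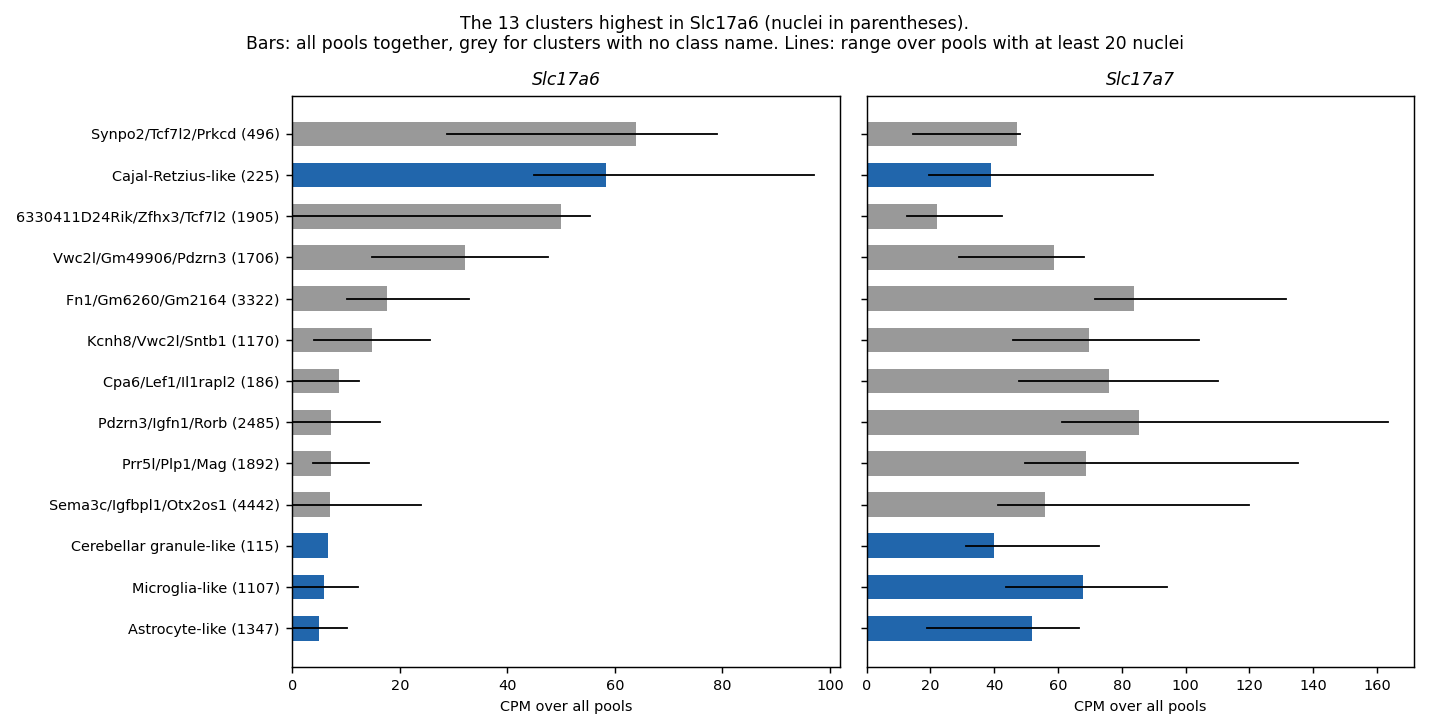
CPM over all pools (horizontal axes) of Slc17a6 and Slc17a7 in the 13 clusters with the highest Slc17a6 level; bars are all pools together, blue for named and grey for unnamed clusters, and lines give the range over pools with at least 20 nuclei. Slc17a6 exceeds Slc17a7 in the Synpo2, Cajal-Retzius-like and Zfhx3 clusters, and Slc17a7 is the higher of both from the Vwc2l cluster down.

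Slc17a8 was highest in an interneuron class and not in the principal cells. Adarb2 interneuron-like nuclei, the class that includes Vip and Cck cells, held 24.9 ± 10.5 CPM (n = 8) and 52.0% of its UMIs. The pools gave a lowest value of 8.38, a median of 23.6 and a highest of 42.5, the lowest being Stress-PLX5622 with 2 UMIs. The next class, Lhx6 interneuron-like, held 3.30 ± 1.95 with a highest pool of 6.12, so the ranges did not overlap. All other classes were at or below 2.08 CPM, and DG-like nuclei were at 0.381.

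Gad1 and Gad2 were highest in neurogliaform-like nuclei, a dense-arbour interneuron type, at 538 ± 99.8 and 565 ± 109 CPM (n = 8). The Gad1 pools ran from 407 through a median of 565 to 696, and none overlapped the next class. Lhx6 interneuron-like nuclei, which include the Sst and Pvalb types, held Gad1 at 251 ± 33.0 and Adarb2 interneuron-like nuclei at 233 ± 32.7, with overlapping ranges. Gad2 was 191 ± 18.0 in Lhx6 interneuron-like and 246 ± 25.6 in Adarb2 interneuron-like nuclei. Per kb of gene span, neurogliaform-like nuclei held a level of 10.99 CPM of Gad1 and 7.85 of Gad2. Medium spiny-like nuclei, striatal projection neurons that use GABA, had 139 Gad1 and 168 Gad2 UMIs, nearly all from 1 pool. In that pool, the only 1 with at least 20 such nuclei, Gad1 was 177 and Gad2 221 CPM. This Gad2 level was above the highest Lhx6 interneuron-like pool, at 216.

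Slc32a1, whose product fills vesicles with GABA, followed the same classes at a much lower level. It was 9.02 ± 2.74 CPM in Lhx6 interneuron-like, 8.83 ± 4.38 in Adarb2 interneuron-like and 5.55 ± 3.60 in neurogliaform-like nuclei (n = 8). In Lhx6 interneuron-like nuclei the pools ran from 4.32 through 8.64 to 14.1, and the 3 classes overlapped. Per kb of gene span this was a level of 0.734 CPM in Lhx6 interneuron-like nuclei, against 5.13 for Gad1 and 2.65 for Gad2. Oligodendrocyte-like, vascular-like and cerebellar granule-like nuclei had 0 UMIs. Medium spiny-like nuclei had 8, which was 2.15% of the Slc32a1 UMIs in a class with 0.357% of all UMIs.

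DG-like nuclei, the granule neurons, held far more Gad1 than Gad2. Gad1 in the control and stressed pools was 50.3 and 56.3 CPM on vehicle, 39.0 and 59.4 on PLX5622, 49.8 and 43.3 in IL-1R1+/+ and 59.1 and 45.4 in nIL-1R1-/-. Gad2 in the same order was 8.18 and 6.77, 9.42 and 8.49, 4.63 and 6.96, and 4.74 and 6.60 CPM. Every pool had more Gad1 than Gad2, and the lowest Gad1 level was above the highest Gad2 level. The ratio of Gad1 to Gad2 UMIs was 8.18 (95% exact interval 6.95 to 9.68) over all pools and 4.14 to 12.47 in single pools. The ratio was 1.31 in Lhx6 interneuron-like, 0.899 in Adarb2 interneuron-like, 0.917 in neurogliaform-like, 1.32 in CA2/3-like and 1.00 in CA1-like nuclei. Per kb of gene span the DG-like level was 1.03 CPM of Gad1 and 0.0968 of Gad2.

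The Gad1 level in DG-like nuclei overlapped that in some glia. Microglia-like nuclei held 49.9 ± 12.6 CPM (n = 6) and OPC-like nuclei 55.3 ± 9.91 (n = 8), against 50.3 ± 7.53 in DG-like nuclei, and the ranges over pools overlapped. As counted 10.5% of DG-like nuclei (median 1663 UMIs) held a Gad1 UMI against 12.4% of microglia-like (2183), 13.4% of OPC-like (1611) and 1.63% of oligodendrocyte-like nuclei (1013). Thinned to 500 UMIs the shares were 2.58%, 2.37%, 3.15% and 0.379%. The ratio did differ: it was 1.199 (1.01 to 1.42) in microglia-like nuclei, with single pools of 0.536 to 1.75, and 1.11 (0.731 to 1.68) in oligodendrocyte-like nuclei. OPC-like nuclei had 2.09 (1.68 to 2.61), and their highest pool of 4.89 overlapped the lowest DG-like pools. Against CA1-like and CA2/3-like nuclei, at 6.82 ± 4.197 and 7.90 ± 2.61 CPM of Gad1, every DG-like pool was higher.

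**Figure D3:**
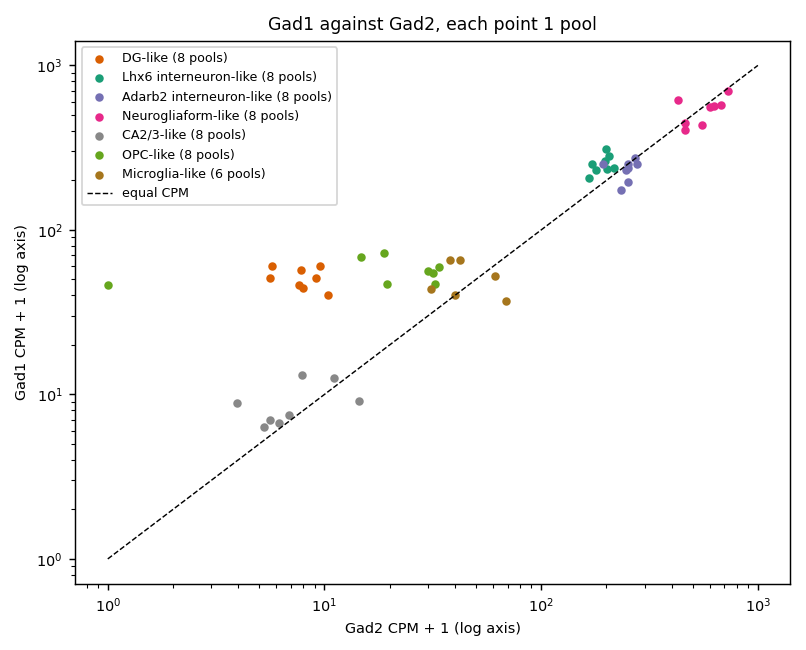
Gad1 (vertical log axis, CPM + 1) against Gad2 (horizontal log axis, CPM + 1) in 7 classes; each point is 1 pool with at least 20 nuclei, and the dashed line marks equal levels. The interneuron classes lie along the line, and the 8 DG-like pools lie above it, with Gad1 between 39.0 and 59.4 CPM and Gad2 between 4.63 and 9.42.

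Slc1a2 was the most abundant of the 8 genes, with 3770 ± 767 CPM in astrocyte-like nuclei (n = 8). Yet this class held 19.1% of its UMIs. CA2/3-like nuclei held 13.9%, deep-layer cortical-like nuclei 10.6% and the unnamed clusters 37.8%. Deep-layer cortical-like nuclei came next at 716 ± 145 CPM, with pools from 560 through 697 to 945 that overlapped neither neighbour in the order. CA2/3-like nuclei held 327 ± 42.7, with pools from 274 through 328 to 382, while CA1-like nuclei held 73.9 ± 17.5 and DG-like nuclei 128 ± 13.3. Every CA2/3-like pool was thus above every CA1-like and DG-like pool. An unnamed cluster of 1170 nuclei led by Kcnh8, Vwc2l and Sntb1 held 755 CPM, with 594 to 841 in single pools. The 755 is from the UMIs of all pools summed, so it is not ranked against the means over pools. After thinning, 28.8% of deep-layer cortical-like and 14.6% of CA2/3-like nuclei held a Slc1a2 UMI, against 79.7% of astrocyte-like, 8.50% of microglia-like and 2.71% of oligodendrocyte-like nuclei. DG-like and CA1-like nuclei, at 5.75% and 3.65%, lay below the microglia-like share. Transcripts carried over from other cells were not separated from a nucleus's own.

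Slc1a3 was highest in the glial classes. Astrocyte-like nuclei held 1354 ± 620 CPM (n = 8) and 33.1% of its UMIs, with pools from 837 through 1187 to 2389. Microglia-like nuclei followed at 209 ± 92.9 (n = 6), oligodendrocyte-like nuclei at 154 ± 46.6 and OPC-like nuclei at 143 ± 51.8, with overlapping ranges. In the microglia-like class, 14.9% of nuclei scored as doublet-like. DG-like nuclei held 71.1 ± 25.8, and CA1-like nuclei 7.70 ± 6.70. The Slc1a2 to Slc1a3 UMI ratio was 3.12 (95% exact interval 3.01 to 3.24) in astrocyte-like, 0.672 (0.579 to 0.779) in oligodendrocyte-like and 68.2 (55.7 to 84.4) in deep-layer cortical-like nuclei. Per kb of gene span, the astrocyte-like level was 28.4 CPM of Slc1a2 and 17.4 of Slc1a3.

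Co-detection asks whether 1 nucleus holds transcripts of both genes of a pair. As counted, deep nuclei hold more of every gene, which raises the share with both, so most shares are also given after thinning to 500 UMIs. The product of the single shares is given beside some of them, and not beside every as-counted share. In astrocyte-like nuclei 70.2% (95% exact interval 67.6 to 72.6) held both Slc1a2 and Slc1a3, where the product is 68.5%. Thinned, the share was 46.9% (43.8 to 50.1) against a product of 42.4%, which lies below the interval. Co-detection intervals here and below take the nuclei of all pools together and hold no spread between pools. In single pools, thinned detection ran from 44.7% to 65.7% for Slc1a3 and from 70.7% to 86.7% for Slc1a2. Shares and products were not compared within pools. Slc1a3 was found in 58.9% of thinned nuclei with Slc1a2 and in 30.7% of those without. Microglia-like and oligodendrocyte-like nuclei held both in 1.09% and 0.379% after thinning.

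Gad1 and Gad2 occurred together in 50.1% of neurogliaform-like nuclei as counted (product 41.9%) and in 6.71% (5.14 to 8.59) thinned (product 6.44%). In Lhx6 interneuron-like nuclei the shares were 27.7% as counted and 1.41% thinned (product 1.253%). In Adarb2 interneuron-like nuclei they were 26.6% and 1.35% (product 1.55%). Microglia-like (median 2183 UMIs) and oligodendrocyte-like nuclei (1013) held both in 5.51% and 0.315% as counted, against medians of 2257 in neurogliaform-like and 2928 in Lhx6 interneuron-like nuclei. After thinning, each product of the interneuron classes lay within the interval of its share. In DG-like nuclei 34 of 10180 nuclei held both as counted, and 0 of 8954 thinned. Of the 336 nuclei with a Slc32a1 UMI, 258 also held Gad1 or Gad2.

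Slc17a8 met the GAD genes in the same nuclei. In Adarb2 interneuron-like nuclei, 57 of the 67 with a Slc17a8 UMI also held Gad1 or Gad2, 85.1% (74.3 to 92.6), against 58.5% of nuclei without Slc17a8. Thinned, this was 4 of 12 nuclei, 33.3% (9.92 to 65.1), against 23.5%. The product of the single shares, 0.190%, lay within the interval of the thinned share of 0.269% (0.0734 to 0.688). Slc17a8 together with Slc17a7 was found in 9 of these nuclei as counted and in 0 of 1485 thinned. Oligodendrocyte-like nuclei held Slc17a8 with a GAD gene in 0 of 1905 and microglia-like nuclei in 2 of 1107, at medians of 1013 and 2183 UMIs against 2200 in Adarb2 interneuron-like nuclei.

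As counted, 16.4% of DG-like nuclei held Slc17a7 and 11.6% a GAD gene. Slc17a7 and a GAD gene were both found in 2.90% (2.58 to 3.24) of DG-like nuclei, below the 6.23% of microglia-like nuclei and above the 0.262% of oligodendrocyte-like nuclei. After thinning it was 6 of 8954 DG-like nuclei, 0.0670% (0.0246 to 0.146), where the product is 0.111%, and 0 in both glial classes. Slc17a7 with Slc17a6 was found in 392 of 56834 nuclei as counted, and in 3 of 48821 thinned, where the product of the single shares is 0.0125%. In the cluster led by 6330411D24Rik, Zfhx3 and Tcf7l2, 17.6% of nuclei held Slc17a6 and 30.8% a GAD gene, but 2.36% (1.73 to 3.15) held both, below the product of 5.41%. Thinned, 0 of its 1884 nuclei held both, where the product is 0.160%.

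RSD was tested over 4 pairs of pools, control against stressed, within each diet or genotype. The edgeR fits cover 11 classes with at least 20 nuclei in every pool and all genes that passed the filter on low counts, and p-values were adjusted over all genes tested in a class. Of the 8 genes, 7 passed in at least 1 class, in 53 gene and class tests, and Slc17a6 passed in none. RSD changed none of the 53 at an adjusted p under 0.05, where 0.381% of all tests were called. At an unadjusted p under 0.05 there were 4 of 53, a share of 7.55% against 9.41% of all tests, and DESeq2 called 0 with 2 under 0.05.

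The lowest adjusted values under RSD belonged to Gad2 in CA2/3-like (log2 fold change 0.69, SE 0.325, edgeR adjusted p = 0.342) and Slc1a2 in astrocyte-like nuclei. Slc1a2 in the control and stressed pools was 3536 and 3971 CPM on vehicle, 3449 and 3527 on PLX5622, 2988 and 4863 in IL-1R1+/+ and 2909 and 4917 in nIL-1R1-/-. It was higher in all 4 stressed pools than in their own controls, although the ranges overlapped. The log2 fold change was 0.37 (SE 0.162, edgeR adjusted p = 0.380), and 0.540% of genes were called in this class. Within single pairs the log2 ratio was 0.17 (95% counting interval 0.06 to 0.27) on vehicle chow, 0.03 (-0.12 to 0.19) on PLX5622, 0.70 (0.60 to 0.80) in IL-1R1+/+ and 0.76 (0.65 to 0.87) in nIL-1R1-/- mice. These intervals hold counting error only. Over the 11 classes the Slc1a2 estimate was higher under RSD in 3 and lower in 8, with a median log2 fold change of -0.10. In vascular-like nuclei it was -0.74 (SE 0.338, edgeR adjusted p = 0.996). Gad1 in neurogliaform-like nuclei had a log2 fold change of 0.38 (SE 0.157, edgeR adjusted p = 0.788), and the log2 fold change of Slc17a7 ran from -0.76 to 0.23 over 10 classes.

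The genotype contrast compared 2 nIL-1R1-/- with 2 IL-1R1+/+ pools in the same fits. None of the 53 tests was called by edgeR, where 0.00755% of all tests were, with 5 under an unadjusted p of 0.05, 9.43% against 2.78% of all tests. DESeq2 called 0, with 0 under 0.05, where 0.516% of all tests were. Slc17a8 in Adarb2 interneuron-like nuclei was 42.5 and 34.04 CPM in the control and stressed IL-1R1+/+ pools and 22.2 and 22.01 in the nIL-1R1-/- pools. Both deletion pools were lower, with a log2 fold change of -0.84 (SE 0.307, edgeR adjusted p = 1.00). Its level in the diet experiment, 8.38 to 28.7, spanned the deletion pools. In Lhx6 interneuron-like nuclei its log2 fold change was 1.81 (SE 0.710, edgeR adjusted p = 1.00), the opposite sign. Slc17a7 in Adarb2 interneuron-like nuclei had a log2 fold change of 0.70. It was also higher in the fit without Stress-nIL-1R1-/-, where it was called. That fit leaves 1 deletion pool, Con-nIL-1R1-/-, the deepest in this class (median 6977 UMIs), so the call is not read as a result.

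The diet contrast compared 2 PLX5622 with 2 vehicle pools. Slc1a3 rose in astrocyte-like and DG-like nuclei and was called in no other class, and no other of the 8 genes was called. In astrocyte-like nuclei it was 864 and 1215 CPM in Control-Vehicle and Stress-Vehicle and 2389 and 2245 in Control-PLX5622 and Stress-PLX5622. The 4 pools of the genotype experiment ranged from 837 to 1275. Both PLX5622 pools were above the other 6, with a log2 fold change of 1.29 (SE 0.227, edgeR adjusted p = 0.0180). Slc1a2 in the same nuclei had a log2 fold change of 0.00 (SE 0.228, edgeR adjusted p = 0.999).

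**Figure D4:**
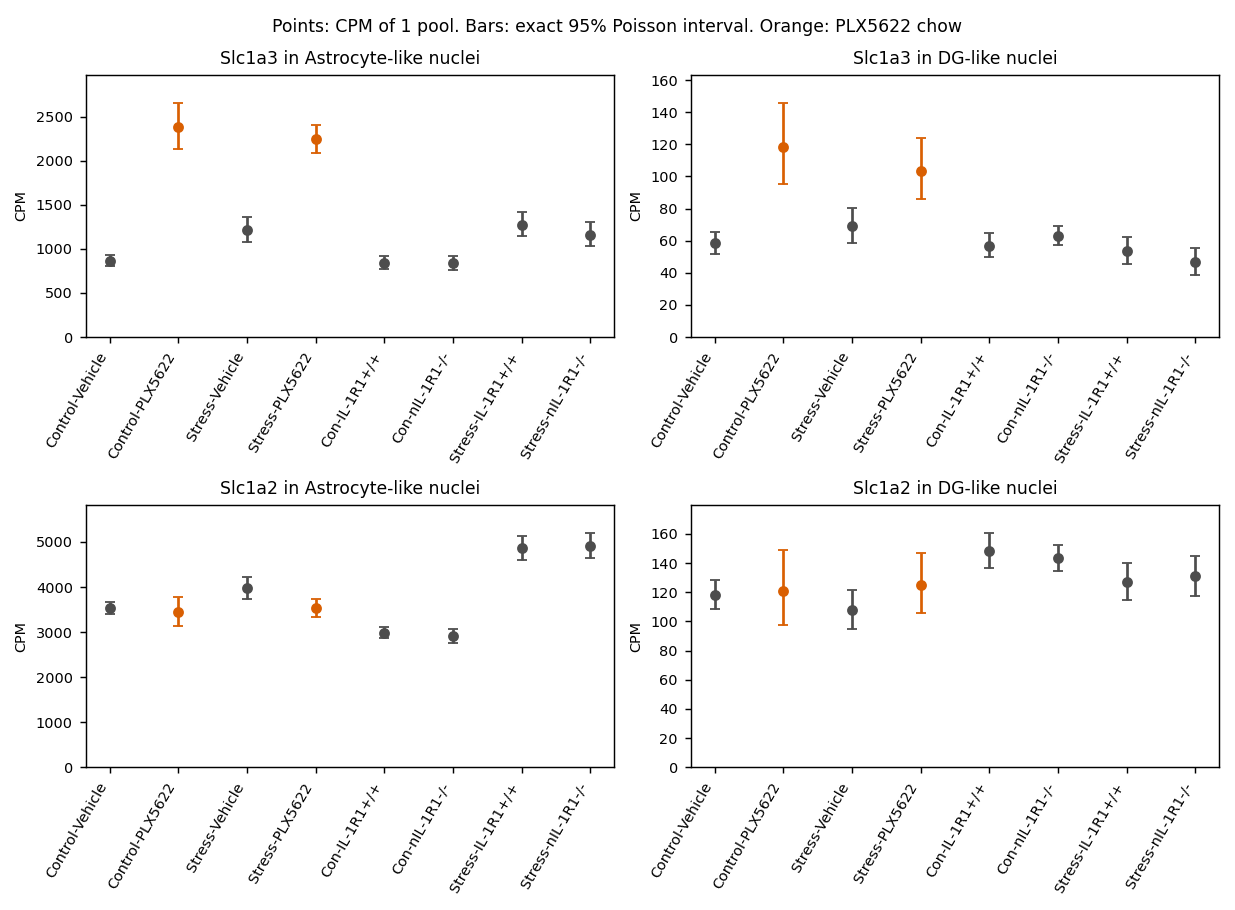
CPM (vertical axes) of Slc1a3 and Slc1a2 in astrocyte-like and DG-like nuclei of each pool (horizontal axes); points are single pools, bars the exact 95% Poisson interval, and orange marks PLX5622 chow. Slc1a3 is highest in both PLX5622 pools in either class, while Slc1a2 in those pools lies among the others.

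In DG-like nuclei Slc1a3 was 58.3 and 69.0 CPM in Control-Vehicle and Stress-Vehicle and 118 and 104 in Control-PLX5622 and Stress-PLX5622. The genotype experiment ranged from 46.5 to 62.8, so the PLX5622 pools were again above the other 6. The log2 fold change was 0.86 (SE 0.188, edgeR adjusted p = 0.0472). Called genes made up 0.0432% of all diet tests, 0.18% in astrocyte-like and 0.186% in DG-like nuclei. The estimate for Slc1a3 was positive in all 11 classes, 0.33 to 1.82 with a median of 1.10. Slc1a2 had a median of 0.06 over the same classes. The whole-pool level of Slc1a3 was 104 and 166 CPM in Control-PLX5622 and Stress-PLX5622 against 39.0 to 61.3 elsewhere. Whole-pool levels also depend on which nuclei a pool holds. Astrocyte-like nuclei numbered 143 in Control-PLX5622 and 378 in Stress-PLX5622, against 76 to 229 in the other pools. At an unadjusted p under 0.05 there were 7 of 53 tests, 13.2% against 5.15% of all, each of them Slc1a3. DESeq2 called 1, Slc1a3 in astrocyte-like nuclei, with 6 under 0.05, 11.3% against 2.20% of all tests.

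The call for Slc1a3 depended on which nuclei were counted. In astrocyte-like nuclei the log2 fold change was 1.13 (edgeR adjusted p = 0.0545) with nuclei of at least 500 UMIs, 0.87 (adjusted p = 0.104) after thinning and 1.00 (adjusted p = 0.997) without doublet-like nuclei. It was 1.18 (adjusted p = 0.969) without Control-Vehicle, 0.93 (0.229) without Control-PLX5622, 1.38 (0.269) without Stress-Vehicle and 1.61 (0.00176) without Stress-PLX5622. In DG-like nuclei the call was lost without Control-Vehicle (0.59, adjusted p = 1.00), Control-PLX5622 (0.74, 0.251) or Stress-PLX5622 (0.98, 0.117), as well as with nuclei of at least 500 UMIs (0.84, 0.0790), after thinning (1.17, 0.0584) or with DESeq2 (0.86, 0.276), and held without doublet-like nuclei (0.94, 0.0259). In the 4 diet pools alone the DG-like call held (0.86, adjusted p = 0.00586) and the astrocyte-like one was lost (1.27, 0.232). Median depth in astrocyte-like nuclei was 483 and 527.5 UMIs in the PLX5622 pools and 854 to 2200.5 in the others. The summed level of the 7 oligodendrocyte markers in astrocyte-like nuclei was 791 and 644 CPM on PLX5622 against 232 to 555 in the other 6 pools, with 6 or 7 of 7 detected in every pool and Cnp at 0 in Control-PLX5622. Of these markers 4 were tested, and 1 was called higher. The 7 microglia markers summed to 21.8 and 45.6 against 12.02 to 41.7, with Tmem119 and C1qa at 0 in both PLX5622 pools. In DG-like nuclei the 8 astrocyte markers summed to 677 and 664 on PLX5622 against 751 to 960 in the others. A sum can follow 1 abundant marker, so it does not measure how many transcripts came from astrocytes. Without the shallow DG-like cluster, chosen as an alternative after the data had been seen, the DG-like log2 fold change was 0.99 (edgeR adjusted p = 0.0648). The part of depth and of transcripts from other cells in these differences was not tested.

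**Figure D5:**
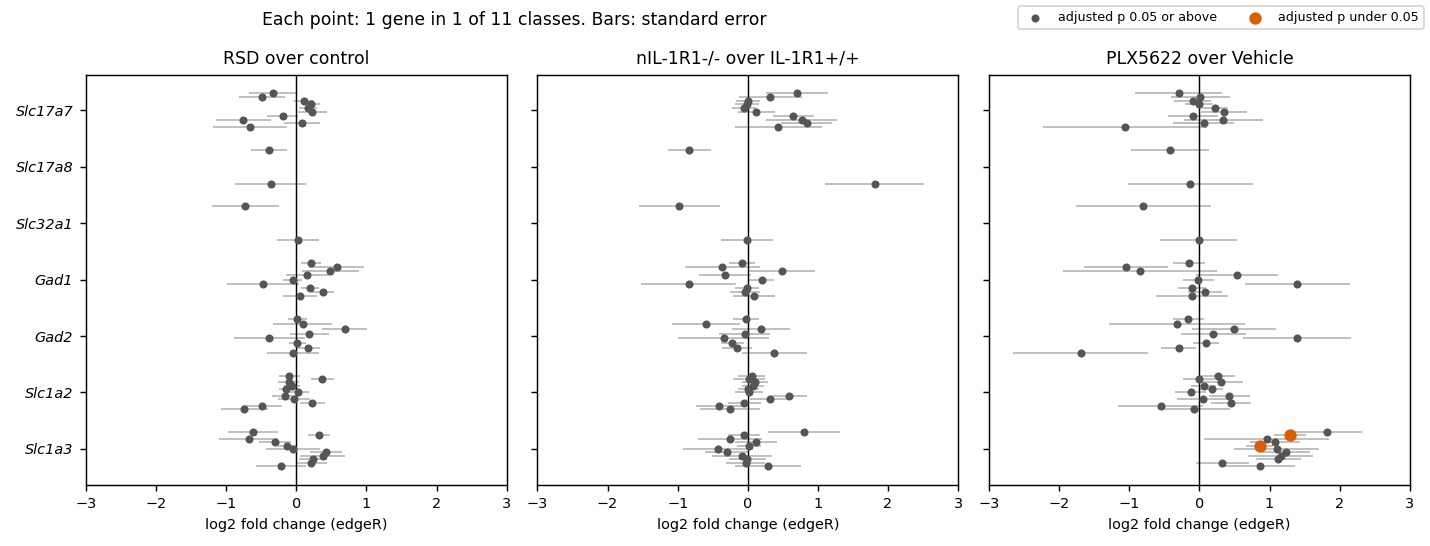
edgeR log2 fold changes (horizontal axes) with standard errors for the 7 testable genes (vertical axis), 1 point per class, for RSD over control, nIL-1R1-/- over IL-1R1+/+ and PLX5622 over vehicle; orange marks an adjusted p under 0.05. The only orange points are Slc1a3 on PLX5622 in astrocyte-like (1.29) and DG-like nuclei (0.86), and all 11 Slc1a3 points of that panel are above 0.

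Around the 8 genes, 21 others that make, convert or move glutamate, glutamine and GABA were tested in the same way, 19 of which passed the filter in at least 1 class (149 tests). RSD called 1 of 149 tests, higher, with 17 at an unadjusted p under 0.05, 11.4% against 9.41% of all tests. The genotype contrast called 0 with edgeR, with 9 under 0.05 (6.04% against 2.78% of all tests), and 0 with DESeq2, with 2 (1.34% against 0.516%). The diet contrast called 0 with edgeR, with 7 under 0.05 (4.70% against 5.15%), and 0 with DESeq2, with 3 (2.01% against 2.20%).

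The RSD call was Slc25a22, a mitochondrial glutamate carrier, in CA1-like nuclei. In the controls it was 12.53 CPM on vehicle, 0 on PLX5622 (where a count of 0 allows up to 13.6), 6.29 in IL-1R1+/+ and 11.1 in nIL-1R1-/-. The stressed pools held 25.5 on vehicle, 29.05 on PLX5622 from 5 UMIs, 16.02 in IL-1R1+/+ and 17.3 in nIL-1R1-/-. All 4 stressed pools were above all 4 controls, with a log2 fold change of 1.03 (SE 0.280, edgeR adjusted p = 0.0468), in a class where 1.07% of genes were called. The estimate was positive in 7 of 7 classes. Leaving out any 1 pair of pools ended the call, with log2 fold changes of 0.92 to 1.30 and adjusted p from 0.102 to 0.396, as did testing all genes without the count filter (0.95, adjusted p = 0.0695), and DESeq2 gave 1.14 with no adjusted p.

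The genes most like each member over the 15 class means, by Pearson r of log2(CPM + 1), are given as a description. They are the highest of many genes over only 15 values, and some class means rest on few UMIs. For Gad1 they were Dlx6os1 (r = 0.93), Rasgrf2 (0.92) and A530058N18Rik (0.91), and for Gad2 Dlx6os1 (0.95), Gm14204 (0.93) and Igf1 (0.93). Dlx6os1, a noncoding transcript of the Dlx5 and Dlx6 locus, was on a shared inhibitory marker list, not used to name classes. Rasgrf2 was on the upper-layer cortical marker list, which was used in naming. Gad1 and Gad2 had an r of 0.86 with each other. Slc32a1 was most like Gm14204 (0.93), which overlaps it, Sp9 (0.90) and Ccdc136 (0.88), and its r was 0.82 with Gad2 and 0.71 with Gad1. Slc17a8 was most like Htr3a (0.89), a serotonin receptor gene and a marker of the Adarb2 class, Dlx6os2 (0.87) and Col19a1 (0.85). Slc17a7 was most like Rtn4r (0.96), the Nogo receptor, Rap2a (0.94) and Camta2 (0.94), and Slc17a6 like Tut4 (0.92), Ost4 (0.90) and Pik3c2g (0.90). Slc1a2 was most like Gm32200 (0.88), Slc39a12 (0.86) and Gdpd2 (0.84), and Slc1a3 like Srebf1 (0.91), a regulator of lipid synthesis, Trp53bp2 (0.90) and St3gal4 (0.90).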

How the data were processed

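The authors deposited, for each of 8 pools of 3 mice, a matrix of raw counts (unique transcripts, UMIs, per nucleus and gene) from the Parse Biosciences pipeline on mm39, with the 4 sublibraries (the GEO samples) joined; the study's own analysis used Seurat 4.1.1, and pools were assigned from the treatment labels. Whether counting used strand is not given in the sources used here. Kept totals ran from 7534594 to 58081835 UMIs a pool, which sets the precision of each level, and intervals and limits for a count of 0 (3 counts) cover counting error only.

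Nuclei over 20% mitochondrial UMIs were left out. The rest were clustered (scanpy 1.11.5, Python 3.11.15; 2000 variable genes without the 8 members or mitochondrial genes, 30 components, 15 neighbours, resolution 1.0) and clusters named "X-like" where the best marker list scored at least 0.6 and 1.25 times the next, with 3 or more markers detected. These thresholds, and the joining of endothelial with mural markers, were set after the cluster table had been seen, which also held the members' levels. Doublets were kept; an own score (neighbours among simulated pairs) marked the highest 6% of each pool, left out as an alternative.

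UMIs were summed per class and pool. edgeR 4.0.16 (R 4.3.3, quasi-likelihood, TMM, filterByExpr) fitted the diet or genotype pair and RSD over all 8 pools in 11 classes with at least 20 nuclei in every pool, with Benjamini-Hochberg adjustment over all genes of a class and a threshold of 0.05. Pairs come from the design (control and stressed pools on one diet or of one genotype) and enter as a block. Each standard error (SE) was derived as the absolute log2 fold change over the square root of the quasi-likelihood F statistic, since edgeR gave none. Correlations of deviations within pairs ran from -0.188 to 0.246, with 23 of 44 over 0.1. Alternatives were DESeq2 1.42.0, relative log expression, no filter, at least 500 UMIs, thinning to 500 UMIs, no replicate block, fewer pools and a clustering resolution of 0.5. The text names all 8 members, pathway genes that were called (those with the highest mean CPM in neuronal or glial classes are not reported here), and for each member the 3 genes with the highest r over class means among genes of at least 200 UMIs. Clusters without a name are given by their leading genes. The members and lists were chosen with earlier results of these data known.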

Additional observations from a re-analysis of the deposited data

Results flagged for a closer look

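In 64 sets of 8 pools tested for a pool far from the rest, 8 were marked. Chance marks about 1 in 20 only where values are normal with equal spread, and the PLX5622 pools held the fewest UMIs. The share marked over all genes was not computed, so the 8 are not read as an excess. Slc1a3 was marked in 4 classes, each time in a PLX5622 pool. It was 74.9 CPM in Adarb2 interneuron-like nuclei of Control-PLX5622 (18 UMIs), against 5.37 to 29.3 in the other pools. It was 22.7 CPM in CA1-like nuclei of the same pool (5 UMIs), against 0 to 9.72. In Stress-PLX5622 it was 54.6 CPM in Lhx6 interneuron-like nuclei (31 UMIs), against 9.34 to 28.1, and 254 CPM in oligodendrocyte-like nuclei (32 UMIs), against 108 to 177. Slc1a2 was 405 CPM in OPC-like nuclei of Stress-PLX5622 (45 UMIs), against 212 to 288. Gad1 was 55.8 CPM in oligodendrocyte-like nuclei of Stress-Vehicle (9 UMIs), against 0 to 21.7, and 49.1 CPM over all nuclei of Control-PLX5622, against 58.4 to 64.9. Slc17a6 was 20.9 CPM over all nuclei of Con-IL-1R1+/+, against 3.96 to 8.63.

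In 2 of 24 comparisons of RSD between the experiments, both pairs of one experiment moved one way and both pairs of the other the opposite way, and the difference was not tested. Neither the number to be found by chance nor the share over all genes was computed, so the 2 are not read as a result about these genes. Gad1 in DG-like nuclei had a mean log2 ratio of stressed over control of -0.29 in the genotype pairs and 0.38 in the diet pairs. Gad2 in Adarb2 interneuron-like nuclei had 0.13 in the genotype pairs and -0.15 in the diet pairs.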

How the results depend on the processing

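Among 220 values recomputed under alternatives, only the fold changes have a direction, and none of these changed it. Of the counts, levels, shares and ratios 162 stayed the same and 25 moved further, while 13 fold changes kept their side of the threshold and 20 lost a call. Same means within 1.5 times a count, or within the SD over pools for a level. For a share or the Gad1 to Gad2 ratio it means within the exact interval, which holds counting error only. The PLX5622 count of 2 was 1 with DESeq2, 0 with nuclei of at least 500 UMIs, 1 without doublet-like nuclei, 0 after thinning and 1 in the diet pools alone, and 0 to 2 leaving out a pool. The genotype count was 0 to 1 leaving out a pool. The RSD count was 0 without the replicate block and leaving out any pair, and the block changed no call. Thinning gave 125 CPM for Slc17a6 in Cajal-Retzius-like, 13.7 for Slc17a8 in Adarb2 interneuron-like, 5846 for Slc1a2 and 1998 for Slc1a3 in astrocyte-like nuclei, a Gad1 to Gad2 ratio of 11.3 in DG-like nuclei, and shares with both genes of 46.9% (Slc1a2 with Slc1a3), 6.71% (Gad1 with Gad2), 0.269% (Slc17a8 with a GAD gene) and 0.0670% (Slc17a7 with a GAD gene, DG-like). Without doublet-like nuclei Slc17a6 in Cajal-Retzius-like nuclei was 95.6 CPM and Slc1a2 in astrocyte-like nuclei 5117. Means of each nucleus's own CPM were 6279 for Slc1a2 and 2086 for Slc1a3 in astrocyte-like nuclei. With at least 500 UMIs the shares with both were 79.2%, 54.5% and, for Slc17a7 with a GAD gene, 3.28%. The cause of these changes was not tested. Depth is lowest in the PLX5622 pools, with the lowest median UMIs per nucleus over all nuclei, and Slc17a6, Slc17a8 and Slc32a1 rest on few UMIs in any pool. The fits have 3 residual degrees of freedom among pools.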
